A study of Mus musculus with 2 samples.

Results

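The genes described here are 10 mouse genes of iron storage, iron uptake and export, iron sensing and heme breakdown, out of 35275 genes in a table of reads per gene. They were chosen by name, with no measured value in the rule: Fth1, Ftl1, Ncoa4, Tfrc, Trf, Slc11a2, Slc40a1, Ireb2, Aco1 and Hmox1. Ensembl identifiers were matched to GENCODE M21 symbols, all 10 genes were found, and all 10 had at least 10 reads over both libraries. RNAseq compared control AML12 cells with AML12 cells driven into senescence by repeated hydrogen peroxide. AML12 is a non-transformed hepatocyte line from the liver of a male CD-1 mouse aged 3 months that carried a transgene for human TGF-alpha, and both groups are cultures of this line. The peroxide group received 1 mM on the first day and 0.75 mM on the later days, for 1 h per day over 6 days in medium without serum, each exposure being followed by 23 h of recovery, and the control group received none. The complete medium of the line held serum, dexamethasone and an insulin, transferrin and selenium supplement, so transferrin protein was supplied from outside. RNA of 3 samples per group was pooled into 1 library, so that no spread between replicates was measured and no p-value is given. The control library held 28021941 reads on genes and the senescent library 25738075.

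Cells store iron inside ferritin, a shell of heavy and light chains, take it up from transferrin through the transferrin receptor, and release it through ferroportin. The iron regulatory proteins bind a hairpin called the iron responsive element (IRE) when iron is scarce. Binding in the 5′ UTR of an mRNA blocks its translation, and binding in the 3′ UTR protects the mRNA from decay. Hepatocytes are a main store of body iron and secrete transferrin, and heme oxygenase frees iron from heme and is a well-known gene of the response to oxidants.

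The hairpin letters are shown because they define how several of these mRNAs are read by the iron regulatory proteins. UTRs of GENCODE M21 coding transcripts on GRCm38 were searched on the sense strand for a C, then 5 bases, then CAGTGN, then 5 bases able to pair with the first 5, with G:U pairs and 1 unpaired position allowed. A 5′ UTR match was found in 206 of 21866 coding genes (0.942%) and a 3′ UTR match in 872 (3.99%). Of the 10 genes, 3 held a 5′ UTR match (Fth1, Ftl1 and Slc40a1), 2 held a 3′ UTR match (Tfrc and Slc11a2) and 5 held none, which says only that these letters are not in their annotated UTRs. Each line gives 29 bases, 5′ to 3′ along the mRNA, and the capitals mark the bulged C and the loop letters.
Fth1 chr19:9982732-9982760, plus strand, 5′ UTR: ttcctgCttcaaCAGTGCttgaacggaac
Ftl1 chr7:45459779-45459807, minus strand, 5′ UTR: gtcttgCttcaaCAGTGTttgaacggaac
Slc40a1 chr1:45925465-45925493, minus strand, 5′ UTR: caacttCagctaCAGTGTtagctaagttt
Slc11a2 chr15:100395153-100395181, minus strand, 3′ UTR: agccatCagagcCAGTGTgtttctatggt
Tfrc chr16:32631219-32631247, plus strand, 3′ UTR: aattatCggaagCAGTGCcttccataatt
Tfrc chr16:32631598-32631626, plus strand, 3′ UTR: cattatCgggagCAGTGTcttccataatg
Tfrc chr16:32631663-32631691, plus strand, 3′ UTR: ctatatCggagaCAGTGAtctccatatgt
Tfrc chr16:32631710-32631738, plus strand, 3′ UTR: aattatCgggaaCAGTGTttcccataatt

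The ferritin hairpins of Fth1 and Ftl1 shared 26 of 29 bases. The 4 Tfrc hairpins shown lay within 520 bases of one another and shared between 18 and 25 bases pair by pair. Hairpins with other letters would not be found by this search, so the matches are not a count of all hairpins of a gene. All 5 positions of the stem were paired in every hairpin shown except that of Slc11a2, where 4 were. The Fth1 letters were in 4 of 5 coding transcripts of the gene, those of Ftl1 in 1 of 2, those of Slc40a1 in 1 of 4, those of Slc11a2 in 1 of 6 and those of Tfrc in 1 of 3. Reads were counted per gene, so transcripts with and without a hairpin cannot be told apart in the values below.

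Levels between genes are compared as RPKM, which are reads divided by the kilobases of annotated exon and by the TMM-scaled library size, with an exact Poisson 95% interval. Ftl1 had the highest level of the 10 genes, 1727 RPKM for control and 2183 for senescent cells, followed by Fth1 with 884 and 940. The ferritin pair together took 0.558% of all control reads and 0.596% of all senescent reads, and 87.0% and 89.8% of the reads on the 10 genes. By number of reads Fth1 ranked 8 among all control genes and 10 among all senescent genes, and Ftl1 ranked 15 and 13. In the control library the order went on with Aco1 (26.0 RPKM), Tfrc (24.8), Hmox1 (18.7), Slc40a1 (16.8), Ncoa4 (16.7), Ireb2 (14.4), Slc11a2 (8.99) and Trf (0.269). Of these neighbours, Aco1 and Tfrc, and Slc40a1 and Ncoa4, had overlapping intervals. In the senescent library Hmox1 came next after Fth1 with 32.6 RPKM, ahead of Aco1 (23.1), Tfrc (16.6), Ireb2 (15.5), Ncoa4 (14.5), Slc40a1 (11.7), Slc11a2 (8.09) and Trf (0.206), and Tfrc and Ireb2 overlapped. Exon length was summed over all annotated transcripts, so the RPKM of a gene with long unused exons is too low by an unknown factor.

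**Figure D1:**
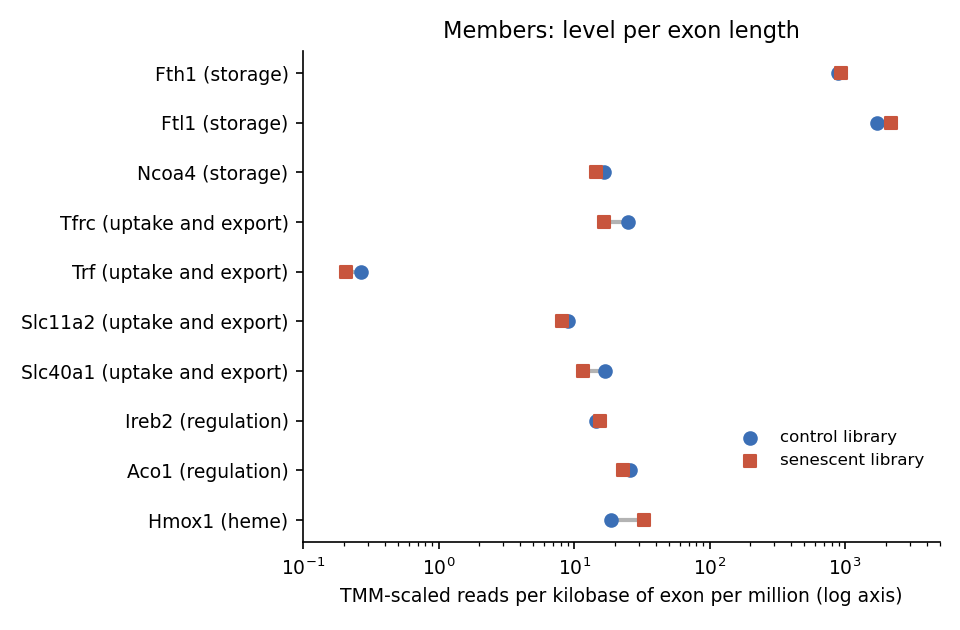
Level of each gene in TMM-scaled RPKM, on a log axis, with circles for the control and squares for the senescent library (1 pooled library each). Ftl1 and Fth1 lie far to the right, Trf lies far to the left at 0.269 and 0.206, and the order of Hmox1 among the genes between them differs between the libraries.

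Differences between the libraries are given as the log2 ratio of senescent over control after TMM scaling, with a prior count of 1 and a 95% interval found by the Clopper-Pearson method from how each gene's reads divide between the libraries. The intervals cover counting error only, because 1 pooled library per group gives no spread between cultures. They can be too narrow even for counting error, since amplified reads that carry no molecular identifier can be copies of the same molecule. Each ratio compares these libraries and has no replicate check. In bulk RNA, fewer cells expressing a gene and less of its RNA per cell cannot be told apart. A gene was called when its log2 ratio was past a threshold and its interval left out 0. At the study's threshold of 1.5, 0 of the 10 genes were called higher, beside 2.71% of the 14383 genes with at least 10 reads, and 0 were called lower, beside 5.60%. At a threshold of 1, 0 of 10 were called higher, beside 5.09%, and 0 were called lower, beside 9.98%. With 10 genes these counts lie near the background and do not set the genes apart from the rest of the table. The median log2 ratio of the 10 genes was -0.16, beside -0.02 over all genes tested, and the median size of the log2 ratio regardless of sign was 0.27, beside 0.41. These sizes are not matched for level. All genes tested include those with as few as 10 reads, whose ratios vary more from counting alone. Of the 10 genes, Trf had 43 reads over both libraries and each of the others 2367 or more. Intervals lay above 0 for 4 genes (Fth1, Ftl1, Ireb2 and Hmox1), below 0 for 5 (Ncoa4, Tfrc, Slc11a2, Slc40a1 and Aco1) and across 0 for Trf, beside 4888 above, 4977 below and 4518 across 0 among the 14383 genes tested. With scaling by total counts, which moved the median of all genes by -0.11, the ratios of Fth1 and Ireb2 changed sign to -0.02 and -0.00024. That scaling took 8 of the 10 ratios, those of Hmox1 and Trf being the exceptions, outside their counting intervals, among them Slc11a2 at -0.26, Aco1 at -0.28 and Ncoa4 at -0.31. Set against the median of all genes, Fth1 stood at 0.11 with TMM and 0.10 with total counts, and Ireb2 at 0.12 with either.

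**Figure D2:**
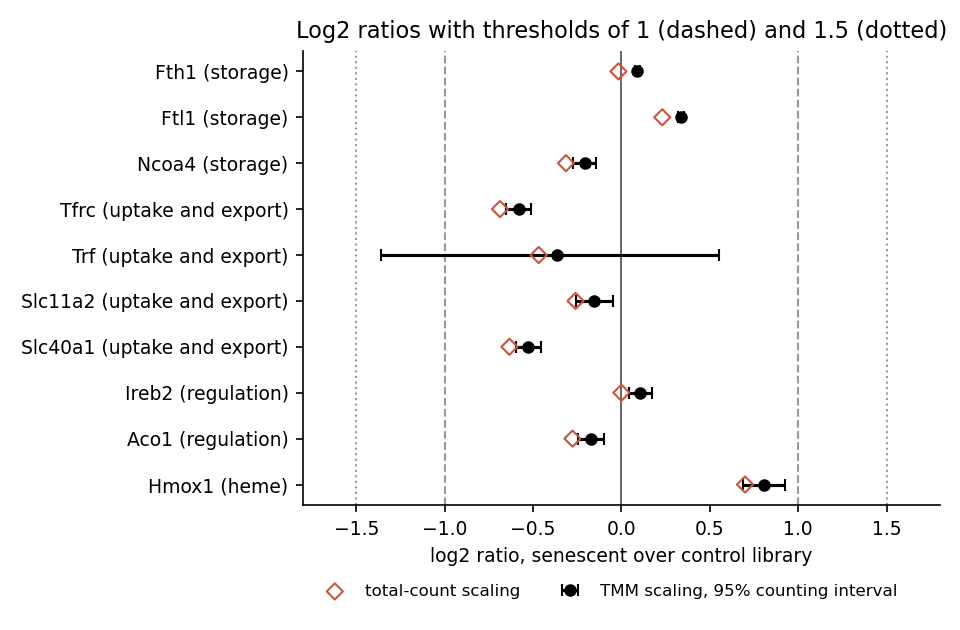
Log2 ratio of senescent over control for each gene, with filled circles and 95% counting intervals for TMM scaling and open diamonds for total-count scaling. All 10 filled circles lie between the dashed lines at a size of 1, from -0.58 for Tfrc to 0.81 for Hmox1, and Fth1 and Ireb2 change sign between the scalings.

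Fth1 encodes the ferritin heavy chain, the subunit that oxidises iron for storage (ENSMUSG00000024661, chr19:9980598-9985098). The control library held 89146 of its reads and the senescent library 80902, or 3066 and 3262 TMM-scaled CPM, the usual scale of reads relative to library size. The log2 ratio was 0.09 (interval 0.08 to 0.10), a 1.06-fold difference in abundance. Ftl1 encodes the light chain, which promotes mineral formation inside the shell (ENSMUSG00000050708, chr7:45457944-45459884). It had 67304 and 72542 reads, or 2314 and 2925 CPM, and a log2 ratio of 0.34 (0.32 to 0.35), a 1.26-fold difference. The ferritin chains thus had intervals that did not overlap each other, with the larger ratio on the light chain. Reads of Fth1 over reads of Ftl1, a ratio within a library that no scaling between libraries changes, were 1.32 for the control and 1.12 for senescent cells. This ratio is not corrected for length, and only its change is read here: -0.25 on the log2 scale, with a Wald interval from the counts of -0.27 to -0.23.

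Ncoa4 encodes the cargo receptor that carries ferritin to autophagosomes for breakdown (ENSMUSG00000056234, chr14:32159865-32179855). It had 4550 control and 3362 senescent reads, or 156 and 136 CPM. Its log2 ratio was -0.21 (-0.27 to -0.14), opposite in sign to that of both ferritin chains under TMM scaling, and opposite to Ftl1 alone under total counts. The mRNAs of the storage group therefore spanned log2 ratios from -0.21 to 0.34.

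Tfrc encodes the transferrin receptor, the route of transferrin-bound iron into most cells (ENSMUSG00000022797, chr16:32608920-32632794). It had 4465 control and 2547 senescent reads, or 154 and 103 CPM. Its log2 ratio of -0.58 (-0.65 to -0.51), 1.49-fold lower, was the lowest of the 10 genes, and 21.3% of all genes tested had a lower ratio. Slc40a1 encodes ferroportin, the iron exporter (ENSMUSG00000025993, chr1:45908068-45926523). It had 4395 and 2602 reads, or 151 and 105 CPM, with a log2 ratio of -0.53 (-0.60 to -0.46), 1.44-fold lower. The mRNAs for the importer and the exporter thus had similar ratios with overlapping intervals. Reads of Tfrc over reads of Slc40a1 were 1.02 and 0.979, a log2 change of -0.05 with an interval of -0.15 to 0.05, so no change of their balance was detectable at this depth. Reads of Tfrc over reads of Fth1 were 0.0501 and 0.0315, a log2 change of -0.67 (-0.74 to -0.60), so receptor mRNA was 1.59-fold lower relative to heavy-chain mRNA, again without any scaling between libraries.

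Slc11a2 encodes DMT1, the transporter that moves ferrous iron across the endosomal membrane (ENSMUSG00000023030, chr15:100387898-100425072). It had 1662 and 1275 reads, or 57.2 and 51.4 CPM, and a log2 ratio of -0.15 (-0.26 to -0.05). This ratio lay above that of Tfrc, with intervals that did not overlap. Trf encodes transferrin, a major secreted protein of the liver (ENSMUSG00000032554, chr9:103204001-103230444). It had only 26 control and 17 senescent reads, or 0.894 and 0.685 CPM, where the floor of 3 reads was 0.103 and 0.121 CPM. Its log2 ratio of -0.37 had an interval of -1.36 to 0.55, and a difference between the libraries was not detectable at this depth. The transferrin mRNA that marks liver tissue thus had few counted reads in both libraries, while the receptor mRNA was well measured in both.

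Ireb2 and Aco1 encode the iron regulatory proteins IRP2 and IRP1, of which IRP1 also works as the cytosolic aconitase when it holds an iron-sulfur cluster. Ireb2 (ENSMUSG00000032293, chr9:54863789-54912530) had 3968 and 3644 reads, or 136 and 147 CPM, and a log2 ratio of 0.11 (0.04 to 0.17). Aco1 (ENSMUSG00000028405, chr4:40143081-40198338) had 3400 and 2577 reads, or 117 and 104 CPM, and a log2 ratio of -0.17 (-0.24 to -0.10). Reads of Ireb2 over reads of Aco1 were 1.17 and 1.41, a log2 change of 0.28 (0.18 to 0.38), so the balance of these mRNAs lay 1.21-fold more toward Ireb2 in the senescent library. Both proteins are controlled mainly after translation, and protein and binding activity were not measured in these data.

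Hmox1 encodes heme oxygenase 1, the inducible enzyme that opens the heme ring and releases iron, carbon monoxide and biliverdin (ENSMUSG00000005413, chr8:75093621-75100589). It had 950 control reads and 1417 senescent reads, or 32.7 and 57.1 CPM. Its log2 ratio of 0.81 (0.69 to 0.93), 1.75-fold higher, was the highest of the 10 genes. The upper end of its interval was below 1, and 91.5% of all genes tested had a lower ratio. Under the other scalings its ratio ran from 0.70 with total counts to 0.80 with DESeq2 size factors.

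**Figure D3:**
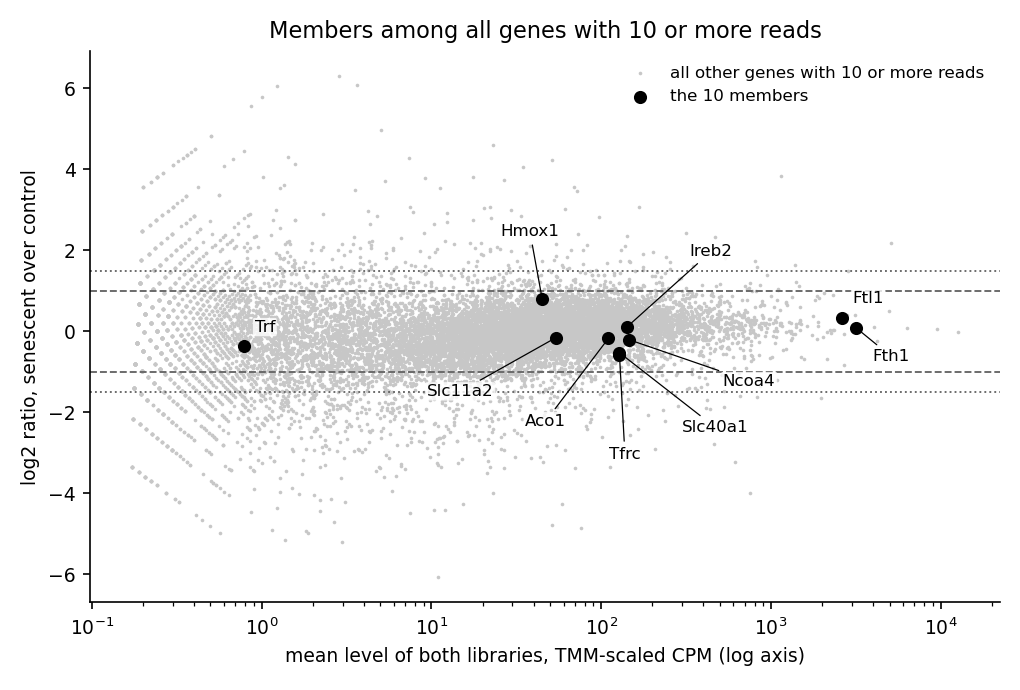
Log2 ratio against mean level of both libraries in TMM-scaled CPM (log axis) for the 14383 genes with at least 10 reads, the 10 genes in black and all others in grey. Dashed and dotted lines mark sizes of 1 and 1.5, Hmox1 is the uppermost black point at 0.81, and Tfrc and Slc40a1 are the lowest at -0.58 and -0.53.

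Read beside the hairpins printed above, the 3 genes with 5′ UTR letters had log2 ratios from -0.53 (Slc40a1) to 0.34 (Ftl1). The pair with 3′ UTR letters had -0.58 (Tfrc, with 4 matches to the letters) and -0.15 (Slc11a2, with 1). The 5′ UTR group thus held ratios on both sides of 0, with Slc40a1 below and Ftl1 above under all 4 scalings, while both genes with 3′ UTR letters lay below 0 under all 4. Among the 5 genes without the letters the ratios ran from -0.37 (Trf) to 0.81 (Hmox1). Of these, Ncoa4, Trf and Aco1 also lay below 0 under all 4 scalings, Hmox1 lay above 0 under all 4, and Ireb2 changed sign. The median over all genes tested was -0.02, so a ratio below 0 is common. With so few genes per group, the signs do not set a group apart.

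Sequence shared with other genes makes part of these counts uncertain, because the counting tool, its annotation and its handling of reads with several matches are not given in the sources used here. With at least 90% identity over at least 200 bases, Ftl1 had 10 similar genes, of which 7 were in the table with 228 control and 275 senescent reads, or 0.339% and 0.379% of the reads on Ftl1 itself. Ftl1-ps1 held 188 and 220 of these reads at 99.6% identity, Gm15590 held 32 and 41 at 99.1%, and Ftl2-ps held 4 and 6 at 98.7%. Ncoa4 had 1 such gene, the pseudogene Gm6768 with 99.9% identity, 25 control reads and 17 senescent reads. Fth1 (Gm6977) and Trf (Gm20425) each had 1 similar gene with 0 reads in both libraries. Adding these reads to the genes shifted the log2 ratios of the 10 genes by between -0.00063 and 0.00058. Reads lost because they matched several places are not counted anywhere in the table, and their number was not tested. Use of strand is also not given, so Slc11a2 and Gm5475, an opposite-strand gene with 402 shared exon bases and 10 and 12 reads of its own, cannot be fully told apart. Gm20425 shares 2108 of the 3320 exon bases of Trf on the same strand, and whether reads in both genes were left out of the 26 and 17 reads of Trf was not tested. Ftl1 overlaps Gm10252 on the opposite strand and Gm22133 on the same strand, by 355 and 109 exon bases, and neither was in the table.

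The other genes of the pathway were taken from 8 lists, which hold 115 distinct genes in the table, 100 of them with at least 10 reads. Of these, 3 were called higher and 10 lower at a threshold of 1, and 0 higher and 7 lower at 1.5, with a median log2 ratio of -0.16. Over all genes tested the shares were 5.09% and 9.98% at 1 and 2.71% and 5.60% at 1.5, and the counts of each list are given beside these shares as a description that does not set a list apart. Among 6 genes of ferritin loading and turnover, 5 were tested and 0 were called in either direction, with a median of 0.17. Pcbp1, an iron chaperone that loads ferritin, had the most reads, 12688 and 12181, and a log2 ratio of 0.17 (0.13 to 0.21). Among 14 genes of uptake, reduction and oxidation, 9 were tested, 1 was called higher and 2 lower at 1, and the median was -0.31. Steap3, which encodes the endosomal reductase that acts between Tfrc and Slc11a2, rose from 1916 to 3519 reads (1.11, interval 1.03 to 1.19), opposite in sign to both, and was at 0.999 with total counts. Cp, which encodes the ferroxidase ceruloplasmin that works with ferroportin, fell from 36093 to 10028 reads (-1.62, interval -1.65 to -1.59). Lcn2, which encodes a secreted binder of siderophores, fell from 4293 to 125 reads (-4.86, interval -5.14 to -4.62).

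Hepcidin, the liver hormone that degrades ferroportin, is encoded by Hamp, which had 0 control reads and 1 senescent read, so no fold is given. Among 20 genes of hepcidin and its control 15 were tested, 1 was called higher and 5 lower at 1, and the median was -0.19. Smad6 (443 and 56 reads, log2 ratio -2.73, interval -3.18 to -2.35) and Id1 (2424 and 674, -1.62, interval -1.74 to -1.49), targets of BMP signalling, fell, while Smad7, which like Smad6 encodes an inhibitory SMAD, had 1291 and 1150 reads (0.06, interval -0.05 to 0.18), and -0.044 with total counts. Lower calls also went to Tmprss6 (72 and 11 reads, -2.39, interval -3.55 to -1.56), Hfe (241 and 74, -1.46, interval -1.87 to -1.09, and -1.57 with total counts) and Erfe (28 and 11, -1.06, interval -2.27 to -0.07). Neo1, which encodes neogenin, had the most reads and rose from 3988 to 7849 (1.21, interval 1.15 to 1.26). Among 10 genes listed for control of the iron regulatory proteins or as carriers of other IREs, 9 were tested, 0 were called higher and 1 lower, and the median was -0.10. The gene called lower was Pfn2 (169 and 66 reads, -1.12, interval -1.56 to -0.71), in whose annotated UTRs the hairpin letters were not found, and Skp1a, of the ligase that degrades IRP2, had the most reads, 7977 and 6738 (-0.01, interval -0.06 to 0.03).

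Around Hmox1, 12 of 14 heme synthesis genes were tested and 0 were called in either direction, with a median of -0.41. Tmem14c, a mitochondrial carrier of heme precursors, had the most reads, 2510 and 1533 (-0.48, interval -0.57 to -0.39). Of 16 genes of heme breakdown, binding and transport, 14 were tested, 0 were called higher and 2 lower, and the median was -0.20. These were the plasma scavengers of hemoglobin and heme, Hp (2886 and 88 reads, -4.79, interval -5.13 to -4.50) and Hpx (11825 and 3390, -1.57, interval -1.63 to -1.52), and Pgrmc1 had the most reads, 12918 and 9557 (-0.21, interval -0.24 to -0.17). Of 8 genes that control Hmox1 transcription all 8 were tested, 1 was called higher and 0 lower, and the median was 0.19. The gene was Mafk, a partner of both NRF2 and BACH1 (1242 and 2223 reads, 1.07, interval 0.97 to 1.17), which was at 0.96 with total counts. Nfe2l2, which encodes NRF2, had the most reads, 5407 and 3940 (-0.23, interval -0.29 to -0.17), opposite in sign to Hmox1. Of 28 genes of iron-sulfur cluster assembly and mitochondrial iron all 28 were tested and 0 were called, with a median of -0.16, and Hspa9 had the most reads, 21144 and 21861 (0.28, interval 0.25 to 0.31).

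**Figure D4:**
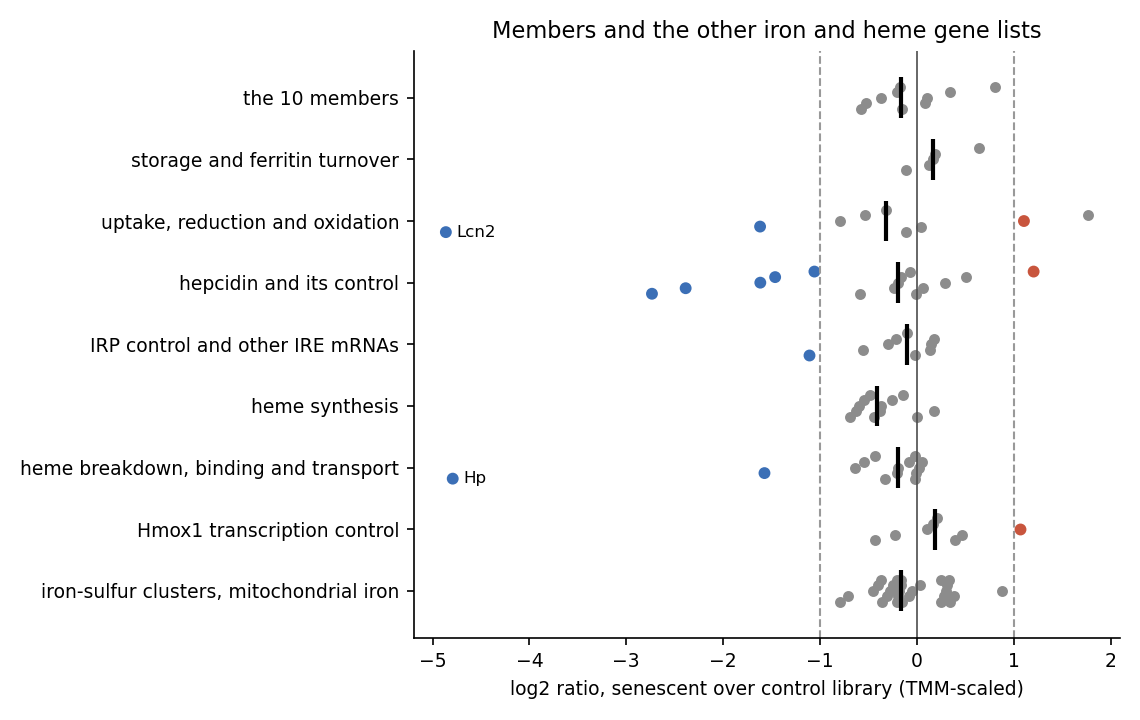
Log2 ratios of the 10 genes and of the genes with at least 10 reads in the 8 other iron and heme lists. Grey points were not called, blue points were called lower and red points higher at a threshold of 1 (dashed), black bars are medians, and Lcn2 at -4.86 and Hp at -4.79 lie far to the left of all other points.

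The hepatocyte label was checked against 13 markers, all of which were tested, with a summed level of 7780 control CPM and 9187 senescent CPM. Krt8 was the most abundant (119403 and 144783 reads), and without Krt8 and Krt18 the other 11 markers summed to 2280 and 893 CPM. At a threshold of 1, 2 markers were called higher (Ahsg and Cyp2e1), beside 5.09% of all genes tested, and 3 lower (Alb, Apoa1 and Serpina1a), beside 9.98%. The same shares apply to the calls in the other marker lists. Hnf4a was well measured in both libraries (8187 and 7705). Among secreted liver products, Alb fell from 32076 to 2917 reads (-3.23, interval -3.28 to -3.17), Apoa1 from 2026 to 197 (-3.13, interval -3.35 to -2.92) and Serpina1a from 102 to 32 (-1.42, interval -2.06 to -0.86), and Ttr had 23146 and 10486 reads (-0.91, interval -0.95 to -0.88), which was past 1 with total counts at -1.02. Afp had 75 and 65 reads (0.02, interval -0.48 to 0.52), Fgb 16 and 14, and Ahsg 7 and 16 (1.30, interval 0.06 to 2.95). Of the enzymes, Tat had 15 and 17 reads, and Cyp2e1 had 0 control reads and 50 senescent reads. Trf, Cp, Hp and Hpx are also secreted by hepatocytes. Cp, Hp and Hpx had ratios below 0 like Alb, Apoa1, Serpina1a and Ttr, and unlike Afp, Fgb and Ahsg. The part of this mixed pattern in the values of Trf, Cp, Hp and Hpx was not tested. Of 11 macrophage markers 3 were tested, and 2 of these were called higher at 1 (Ptprc, and Csf1r with 15 and 40 reads), beside 5.09% of all genes tested. The summed level was 2.65 and 6.29 CPM, the most abundant was Ptprc (27 and 76 reads), Cd68 had 34 and 40 reads (0.45, interval -0.23 to 1.17), and Adgre1, Vsig4, Clec4f, Timd4, Marco, Cd163 and Spic were at 0 in both libraries. Iron-recycling macrophages express Hmox1 and Slc40a1 strongly, and the part of these markers in the values of both genes was not tested. The summed level was 0.688 and 0.645 CPM for 7 erythroid markers (Klf1 with the most reads over both libraries together, with Hbb-bs and Hbb-bt at 0), 0.206 and 0.564 for 6 endothelial markers (Pecam1 by the same measure), and 0.928 and 0.403 for 7 stellate cell and fibroblast markers (Col1a1, with Col1a2 at 0). Few of these markers had at least 10 reads: 2 of 7 erythroid, 0 of 6 endothelial and 1 of 7 stellate cell and fibroblast markers were tested. The last was Col1a1, which was called lower with 21 and 1 reads (-3.29, interval -9.53 to -1.53). The 5 cholangiocyte markers summed to 1024 and 1001 CPM, led by Krt19 with 22885 and 19177 reads. Among them Cftr was called higher (44 and 176 reads, 2.20, interval 1.75 to 2.74) and Krt7 lower (3248 and 1026, -1.43, interval -1.54 to -1.33), and Sox9 had 3602 and 4454 reads (0.54, interval 0.47 to 0.60). Of 7 senescence and cycling markers, 0 were called higher at 1, beside 5.09% of all genes tested, and 1 was called lower, beside 9.98%. The gene called lower was Cdkn2a (437 and 149 reads), while Cdkn1a, the most abundant, had 6182 and 9869 reads (0.90, interval 0.86 to 0.95). Trp53 had 5364 and 5494 (0.26, interval 0.21 to 0.32), and Lmnb1 had 2249 and 1556 (-0.30, interval -0.40 to -0.21). Mki67, which marks cycling cells, had 3322 and 1635 reads (-0.79, interval -0.88 to -0.71), with the same sign as Tfrc, and Top2a, another cycling gene, had 3576 and 3452 (0.18, interval 0.11 to 0.25). Ccnb1 had 861 and 782 (0.09), with an interval of -0.05 to 0.23 that held 0. With total counts the ratio of Ccnb1 was -0.016. The part of cycling cells in the Tfrc ratio was not tested.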

How the data were processed

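The authors deposited un-normalized read counts per Ensembl gene for 1 pooled library per group. The submitters' processing notes name CASAVA, STAR, DESeq2, edgeR and the mm10 build without roles or versions. The counting tool, annotation and use of strand are not given in the sources used here, and the supplementary methods that the study names for RNAseq were not used here. Of 35275 identifiers, 34490 (97.8%) had a GENCODE M21 symbol. Columns were assigned by the initials of the sample titles. Counts of all genes were scaled by TMM in edgeR 4.0.16 (R 4.3.3), with DESeq2 1.42.0 size factors, upper quartiles and total counts as alternatives. Python 3.11.15 gave ratios, intervals (scipy 1.17.1) and plots (matplotlib 3.10.9), with tables held in pandas 2.3.3 and numpy 2.4.6, and similar genes were found with blastn 2.17.0. The minimum of 200 aligned bases was raised from 100 after matches were seen, because a repeat in a Trf transcript matched many genes. With 1 library per group, neither edgeR's nor DESeq2's test was run.

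Named genes were the 10 genes, similar genes with at least 10 reads and, of each list, up to 4 genes per direction past 1, the gene with the most reads and any gene needed to name a count of 5 or fewer. Hamp, Smad7, Gm6977, Gm20425, and of the markers those neither at 0 nor most abundant, were named after their values were seen, as were the overlapping genes. The members, though the rule names genes and uses no value, and the lists were chosen with earlier results of these data known. The search for hairpin letters in the other lists is, beyond Pfn2, not reported here. The hepatocyte marker sum without Krt8 and Krt18 was chosen after seeing the data.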

Additional observations from a re-analysis of the deposited data

How the results depend on the processing

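At 1.5 and at 1, 0 of the 10 genes were called in either direction under every alternative run. Those that could have added a call were other scalings, a lower prior count and reads summed with similar genes. The lower prior count moved the ratios by only -0.015 to 0.00061, and the summed reads by -0.00063 to 0.00058. With the largest ratio at 0.81, shifts of that size could not reach a threshold. A higher prior count, at least 1 or 100 reads, and intervals widened for a coefficient of variation of 0.1 or 0.4 could not add a call. All 10 genes already passed the read floor, a higher prior count only draws ratios toward 0, and wider intervals only remove calls. The median log2 ratio of the 10 genes was -0.27 with total counts. It moved by less than its counting error under the other alternatives run for it, which did not include the widened intervals. The ratios of Fth1 and Ireb2 changed sign with total counts. Upper quartile scaling took 2 ratios outside their counting intervals, those of Fth1 at 0.051 and Ftl1 at 0.30, without a change of sign.

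With total counts the list medians were 0.064 for ferritin turnover, -0.42 for uptake, -0.30 for hepcidin, -0.21 for IRP control, -0.52 for heme synthesis, -0.31 for heme breakdown, 0.081 for Hmox1 control and -0.27 for iron-sulfur clusters. With upper quartiles ferritin turnover was 0.13. With at least 1 read uptake was -0.11, hepcidin -0.12 and IRP control -0.058, and with at least 100 reads uptake was -0.42. No list median changed sign. Counts of the lists at 1 under other scalings were an alternative chosen after seeing the data: with total counts, 0 genes of uptake and 0 of Hmox1 control were called higher.

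No paired analysis was possible because each group has 1 library. Few reads limit Trf and Hamp, and the spread between cultures was not measured, so small ratios such as that of Fth1 rest on counting error alone.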
